A study of Salmo salar with 26 samples.

Results

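The 6 transcripts described here were picked because their levels differed between diploid and triploid Atlantic salmon (Salmo salar) lenses, out of 26681 unigenes (contigs, each standing for a transcript or a piece of one). They are an uncharacterised protein (Unigene10394), a contig without a protein hit (Unigene8661), ubiquitin-conjugating enzyme E2 D4 (CL1574.Contig1), cytochrome P450 2K5 (Unigene10869), uncoupling protein 2A (CL1232.Contig1) and a FYCO1-like contig (Unigene10707). They were chosen by their measured triploid minus diploid differences, so those differences are given as values and carry no test. RNA came from the lenses of 26 fish, 1 library a fish: 6 diploid fish without cataract (2N-), 6 diploid fish with cataract (2N+), 6 triploid fish without cataract (3N-) and 8 triploid fish with cataract (3N+). Apart from being sorted by ploidy the fish had no specific treatment per the labels. Their age and strain and how triploidy was induced were not stated.

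Triploid fish carry an extra set of chromosomes in every cell and are farmed because they are sterile. A lens is a ball of elongated fibre cells packed with crystallins under a single layer of epithelium. Maturing fibre cells degrade their organelles, and ubiquitin tagging, mitochondrial function and autophagy are all studied in that process.

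Counted reads came to between 9.76 and 11.95 M a library, and the median unigene had 14 in a library. Crystallins and other fibre proteins, the defining markers of a lens (78 unigenes), took 38.6% to 48.1% of reads in every library. Connexin 43, the main marker of the epithelium, ranged from 0.42 to 109 RPKM (reads per kilobase of contig and M reads). Its group medians were 60.8 (2N-), 50.9 (2N+), 24.3 (3N-) and 6.16 RPKM (3N+), and its group means 44.7, 52.2, 26.8 and 22.5 RPKM. Other epithelium markers did not all follow these means. In the same order of groups, mean RPKM was 33.8, 22.8, 31.1 and 24.7 for Sox-2 (CL858.Contig1). For Pax-6 (CL2473.Contig4) it was 5.52, 6.53, 4.58 and 4.72, like the connexin 43 means highest in 2N+ and lower in both triploid groups. Of the Pax-6 contigs only CL2473.Contig2 was higher in 3N- than in 2N-, at 2.25, 3.87, 3.06 and 1.77. The clear diploid fish were the lightest, at 257 ± 80.6 g (SD, n = 6, range 110 to 345 g). Body weight was 596 ± 158 g for the 2N+ fish, 510 ± 162 g for the 3N- fish and 606 ± 221 g for the 3N+ fish. In whole lenses, fewer cells of a type and less RNA per cell cannot be told apart. Levels are the deposited RPKM, as mean ± SD over fish, and log2 differences ± SE come from 1 model of all 4 groups on RPKM rescaled for library composition, as log2(scaled RPKM + 0.5), which understates changes of low unigenes. Without the rescaling the median of all tested unigenes moved by 0.27 log2 for cataract in diploids, by 0.15 for cataract on average and by -0.20 for ploidy in cataract lenses, so differences on the deposited scale carry these shifts. The limma calls for cataract in diploids then went from 54 higher and 215 lower to 1095 higher and 220 lower.

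All 6 members were among the 51 unigenes (0.261% of 19532 tested) that passed an adjusted p of 0.05 in limma, an empirical Bayes linear model, for ploidy averaged over both cataract states. In clear lenses alone 2 members passed (Unigene10394 and P450 2K5), where the share over all tested unigenes was 0.0666%. In cataract lenses alone 2 passed (Unigene10394 and Unigene8661), with a share of 0.0102%. These counts restate how the members were picked. The numbers of unigenes called also move with single lenses: leaving out 1 lens at a time gave 12 to 117 for ploidy on average, 3 to 72 in clear lenses and 0 to 15 in cataract lenses. By that average 4 members were higher and 2 lower in triploids. On the deposited scale the ranges of the diploid and triploid fish were apart for E2 D4, which was higher in triploids, and for Unigene10394, which was lower, in clear lenses (0.773% of tested unigenes were apart and higher, 0.276% apart and lower) and again in cataract lenses (0.041% and 0.164%).

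**Figure D1:**
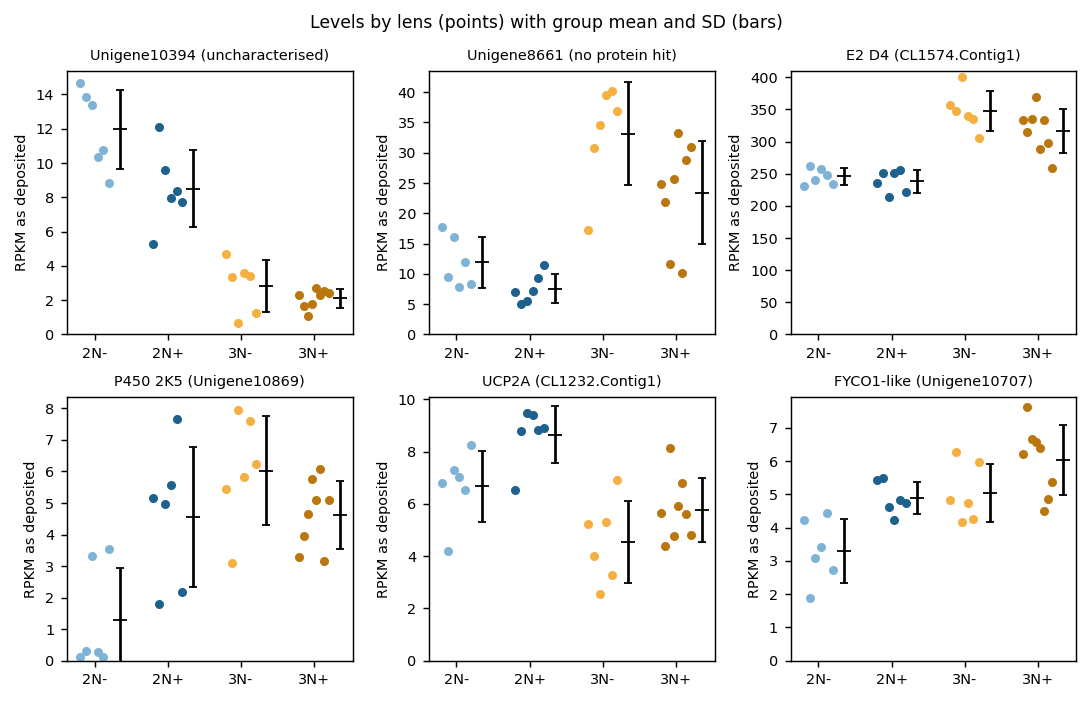
Deposited RPKM of each member in every lens (points), with the group mean and SD as bars beside them; the lower bar of P450 2K5 in 2N- is drawn down to the axis at 0. Unigene10394 lies at 4.68 RPKM or less in all triploids and at 5.28 RPKM or more in all diploids, and 4 of the 6 clear diploid lenses lie near 0 for P450 2K5.

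Unigene10394 was the member lowest in triploids. Its contig of 935 bases best matched an uncharacterised zebrafish protein, and its best pathway database entry was immunoglobulin superfamily member 11, which in mammals is a cell adhesion molecule. RPKM was 12.0 ± 2.32 in 2N- (8.84 to 14.7, median 12.1), 8.51 ± 2.25 in 2N+ (5.28 to 12.1, median 8.17), 2.83 ± 1.53 in 3N- (0.672 to 4.68, median 3.38) and 2.10 ± 0.538 in 3N+ (1.10 to 2.70, median 2.31). Every one of the 14 triploid lenses lay below every one of the 12 diploid lenses, and no other unigene had every triploid below every diploid (1 unigene is 0.00512% of those tested) on deposited or on rescaled values. In the other direction 0 unigenes were so placed on deposited values and 1 on rescaled values, Unigene9794, a contig without a protein hit, named after its values had been seen. The neighbours in this order, 2N- and 2N+ on one side and 3N- and 3N+ on the other, overlapped. Triploid minus diploid was -2.10 ± 0.28 log2 in clear lenses, a ratio of 0.234, and -1.57 ± 0.26 in cataract lenses, a ratio of 0.336. The triploid values rest on 7 to 47 reads a library, and the diploid values on 59 to 151. Within 3N-, replicates 3 and 6 held 7 and 13 reads against 35 or more in the other 4.

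Its level was not called for cataract. The difference, cataract minus clear, was -0.77 ± 0.28 log2 in diploids (limma adjusted p = 0.207) and -0.25 ± 0.26 in triploids (adjusted p = 0.892). Each cataract contrast shares its groups of fish with the ploidy contrasts. Averaged over ploidy it was -0.51 ± 0.19 (adjusted p = 0.188), and leaving out 3N- replicate 3 alone took it to -0.63 with an adjusted p of 0.0493.

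Unigene8661 was higher in triploids in both cataract states. This contig of 564 bases had no protein hit, so no role can be given. RPKM was 11.9 ± 4.16 in 2N- (7.89 to 17.7, median 10.7), 7.57 ± 2.39 in 2N+ (5.09 to 11.4, median 7.09), 33.2 ± 8.55 in 3N- (17.2 to 40.1, median 35.7) and 23.4 ± 8.48 in 3N+ (10.2 to 33.3, median 25.2). The order from low to high was 2N+, 2N-, 3N+, 3N-, and each pair of neighbours overlapped. Triploid minus diploid was 1.43 ± 0.32 log2 in clear lenses, a ratio of 2.69, and 1.72 ± 0.30 in cataract lenses, a ratio of 3.29. In clear lenses 5 of 6 triploids lay above every diploid on the deposited scale, and 3N- replicate 1 did not. In cataract lenses 7 of 8 did. After rescaling 5 of 6 clear and 8 of 8 cataract triploids did, where 0.0512% of tested unigenes had all cataract triploids above. The 3N+ lenses fell apart, with replicates 3 and 6 at 11.6 and 10.2 RPKM and the other 6 at 21.9 or more.

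Cataract lenses held less of Unigene8661 in both ploidies by value, -0.88 ± 0.32 log2 in diploids (limma adjusted p = 0.199) and -0.59 ± 0.30 in triploids (adjusted p = 0.58), and neither passed. The average over ploidy was -0.74 ± 0.22 (adjusted p = 0.0669). This average passed with connexin 43 in the model (-0.74, adjusted p = 0.026), where calls over all tested unigenes rose from 518 to 1137. It also passed without 3N- replicate 1, the lowest lens of 3N- (-0.85, adjusted p = 0.0212). It passed in no other fit leaving out 1 lens (limma adjusted p up to 0.128). Nor did it pass on RPKM as deposited (limma adjusted p = 0.0634) or with body weight in the model (adjusted p = 0.0919).

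The unigene whose level followed Unigene8661 most closely from lens to lens was CL18.Contig2, a contig of 1728 bases that resembles HARBI1, a putative nuclease related to Harbinger DNA transposases. After the group means were taken out, Pearson's r over the 26 lenses was 0.899, the highest of 10439 candidate unigenes with a protein hit; the next was 0.734. On RPKM as deposited it was 0.87, again the highest. These points share library and scaling, so r is a description. CL18.Contig2 stood at 8.88 ± 4.24 RPKM in 2N-, 6.83 ± 1.13 in 2N+, 27.5 ± 8.19 in 3N- and 18.8 ± 5.77 in 3N+. Its ploidy differences were 1.62 ± 0.31 log2 in clear lenses (limma adjusted p = 0.0303) and 1.55 ± 0.29 in cataract lenses (adjusted p = 0.0744), so both contigs stood in the same order over the 4 groups. It was named after the values had been seen, by its likeness within groups.

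Ubiquitin-conjugating enzyme E2 D4 was the most abundant member. E2 enzymes take activated ubiquitin and pass it on with a ligase to the protein to be tagged, and the D family works with many ligases. This contig, at a mean of 289 RPKM over all lenses, ranked first of the 51 unigenes named as E2 enzymes, ahead of E2 K at 78.2 RPKM. RPKM was 246 ± 12.7 in 2N- (231 to 263, median 245), 238 ± 17.4 in 2N+ (214 to 256, median 243), 348 ± 31.5 in 3N- (305 to 401, median 344) and 317 ± 34.0 in 3N+ (260 to 369, median 325). The coefficient of variation within groups was 5.18% to 10.7% on these deposited values and 17.9% to 22.8% after rescaling. The clear and cataract diploids overlapped, as did the clear and cataract triploids.

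Triploid minus diploid for E2 D4 was 0.47 ± 0.16 log2 in clear lenses and 0.63 ± 0.15 in cataract lenses, ratios of 1.38 and 1.54. On RPKM as deposited the differences were 0.50 and 0.41, the second against the median shift of -0.20. After rescaling the ranges overlapped in both states, with 3 of 6 clear and 6 of 8 cataract triploids above every diploid. Counted against the lens fibre list, E2 D4 gave 0.287 ± 0.0108 reads per 1000 fibre reads in 2N-, 0.302 ± 0.021 in 2N+, 0.417 ± 0.0323 in 3N- and 0.391 ± 0.044 in 3N+. On this within-library measure the clear groups were apart (0.275 to 0.306 against 0.386 to 0.458). The cataract groups met at their edges (0.283 to 0.333 against 0.325 to 0.446). The share of all unigenes apart on this measure was not computed, and E2 D4 was chosen by its ploidy difference.

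After group means were removed, the unigenes nearest to E2 D4 on rescaled values were a beta-crystallin A2-like contig (Unigene8128, r = 0.94 over 26 lenses), CL4018.Contig1, an unnamed fish protein (r = 0.938), and gamma-crystallin B (Unigene6863, r = 0.935). These values share library and scaling factor, and on RPKM as deposited the same 3 gave r = 0.628, 0.62 and 0.521, none of them the nearest. Over the 74 tested unigenes of the lens fibre list the median r with E2 D4 was 0.848 on rescaled and 0.247 on deposited values. For ploidy 0 of these 74 were called in limma in either state or on average. Over all tested unigenes 0.0666% were called in clear lenses, 0.0102% in cataract lenses and 0.261% on average. At an unadjusted p under 0.05 were 4 of the 74 in clear lenses (5.41%), 30 in cataract lenses (40.5%) and 13 on average (17.6%). The shares over all tested unigenes were 9.99%, 8.04% and 11.9%. The median ploidy difference of the 74 was -0.05 log2 in clear and 0.31 in cataract lenses, against 0.00 and -0.01 over all tested unigenes. For Unigene8128 the differences were 0.04 ± 0.17 (limma adjusted p = 0.969) and 0.31 ± 0.15 (adjusted p = 0.641). E2 D4 was also the only 1 of the 6 members whose slope on connexin 43 within groups passed, at -0.09 ± 0.02 log2 per doubling (limma adjusted p = 4.18e-05), where 38.1% of tested unigenes passed. With connexin 43 in the model its ploidy differences were 0.35 and 0.53. The slope and these differences come from rescaled values, where E2 D4 and connexin 43 share the scaling factor.

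**Figure D2:**
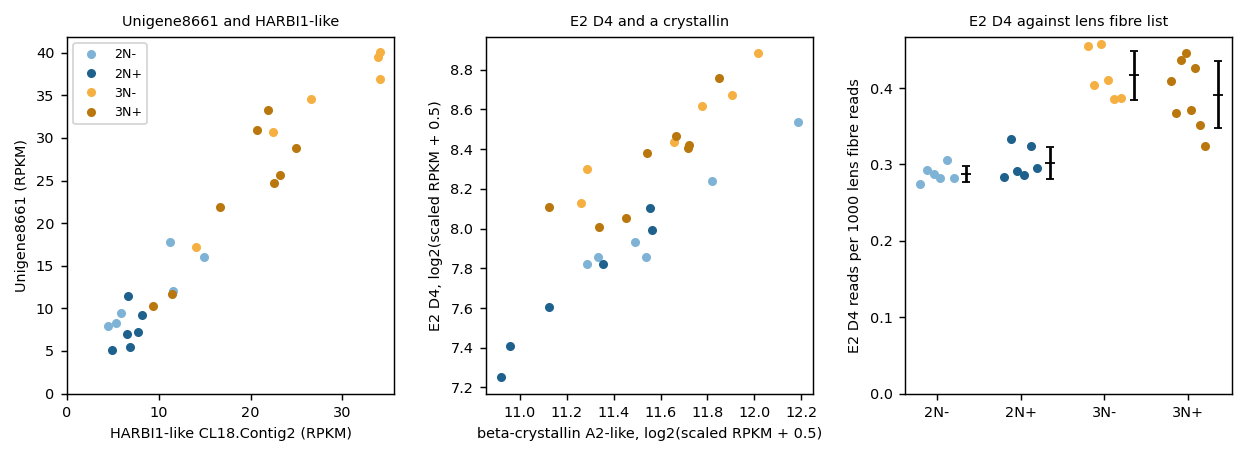
Left, Unigene8661 against the HARBI1-like CL18.Contig2, both as deposited RPKM; middle, E2 D4 against a beta-crystallin A2-like unigene, both as log2(scaled RPKM + 0.5); right, E2 D4 reads per 1000 reads of the lens fibre list, with group mean and SD. Points are lenses. In the middle panel both axes share the scaling factor. In the right panel the clear groups are apart. E2 D4 was chosen by its ploidy difference, so its higher values in triploids are no separate support.

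E2 D4 did not pass for cataract, at -0.34 ± 0.16 log2 in diploids (limma adjusted p = 0.372) and -0.18 ± 0.15 in triploids (adjusted p = 0.834). With connexin 43 in the model it passed in diploids (-0.36, adjusted p = 0.0414) and on average (-0.27, adjusted p = 0.0196), while on RPKM as deposited the diploid difference was -0.05 (adjusted p = 0.706). Other contigs of the D family stood far lower, and none was called for ploidy in clear or cataract lenses. CL1574.Contig1 was not called in either state alone, and the average over both states is not given for the others. CL1574.Contig2, also named E2 D4, held 10.5 ± 1.12 RPKM in 2N- and 9.55 ± 1.91 in 3N-, with ploidy differences of -0.17 ± 0.11 log2 (limma adjusted p = 0.636) and -0.09 ± 0.10 (adjusted p = 0.828). In clear lenses an E2 D2 contig, Unigene8158, had 0.50 ± 0.13 (limma adjusted p = 0.139), where CL1574.Contig1 had 0.47 ± 0.16. In cataract lenses they had 0.08 ± 0.12 (limma adjusted p = 0.859) and 0.63 ± 0.15. Near-identical copies of these genes could share reads, and how the authors assigned such reads is not given in the sources used here.

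Of 45 other tested E2 unigenes, 0 passed for ploidy in either cataract state in limma, with 2 at an unadjusted p under 0.05 in clear lenses and 6 in cataract lenses, against the 9.99% and 8.04% of all tested unigenes. Their median ploidy difference was 0.02 and 0.01 log2, against 0.00 and -0.01 over all tested unigenes. E2 D4 itself passed in neither state alone, only for ploidy on average, which was not counted for this list. For cataract 1 fell in diploids, E2 H (CL3610.Contig1, -0.59 ± 0.14, adjusted p = 0.0285), and on average over ploidy E2 H (-0.51, adjusted p = 0.00265) and an E2 O-like contig (CL278.Contig2, -0.52, adjusted p = 0.00786) fell. Over all tested unigenes 1.38% were called for cataract in diploids and 2.65% on average.

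Cytochrome P450 2K5 was low in most clear diploid lenses and present in all other groups. P450 enzymes are haem proteins that oxidise lipids and foreign compounds, and in trout a related 2K enzyme hydroxylates fatty acids. On this contig of 1457 bases RPKM was 1.28 ± 1.66 in 2N- (0.125 to 3.53, median 0.29), 4.56 ± 2.22 in 2N+ (1.79 to 7.67, median 5.07), 6.03 ± 1.74 in 3N- (3.11 to 7.95, median 6.03) and 4.63 ± 1.08 in 3N+ (3.17 to 6.07, median 4.86). The 2N- lenses split, with 2 to 5 reads in 4 fish and 55 and 56 reads in replicates 3 and 6. No other lens of the 26 had fewer than 30 reads. Replicate 3 was the heaviest clear diploid fish at 345 g and replicate 6 the lightest at 110 g. The groups 2N+, 3N+ and 3N- overlapped one another.

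Triploid minus diploid for P450 2K5 was 2.35 ± 0.43 log2 in clear lenses, a ratio of 5.11, and 0.31 ± 0.40 in cataract lenses, a ratio of 1.24 (0.13 log2 on RPKM as deposited). With so few reads in 2N- the size in clear lenses depended on the scale, at 3.10 with a pseudocount of 0.1 and 3.28 with voom on recovered reads. The difference between these 2 differences was -2.04 ± 0.58 log2 (-2.86 with voom), which also equals the cataract effect in triploids minus that in diploids; it carries no test because the ploidy contrasts chose the members. In diploids P450 2K5 was higher with cataract by 1.67 ± 0.43 log2, a ratio of 3.19 (limma adjusted p = 0.0446), with 4 of 6 cataract lenses above every clear lens. The 2N- lenses are also the baseline of the clear lens ploidy difference that chose this member, so the call is not independent of that choice. It was the 1 of 6 members called in that contrast, where 1.38% of tested unigenes were; 4 of 6 had an unadjusted p under 0.05, against 12.5%. In triploids the value was -0.37 ± 0.40 (adjusted p = 0.893), and 0 of 6 members were called in limma, against 0.087% of tested unigenes, with 1 at an unadjusted p under 0.05, against 8.94%. Averaged over ploidy 0 of 6 were called in limma, against 2.65%, with 5 at an unadjusted p under 0.05, against 14.5%. These cataract contrasts use the same lenses as the ploidy contrasts that chose the members. Ranges of the clear and cataract groups were apart for 0 of 6 members in diploids (2.64% of tested unigenes were apart and higher with cataract, 0.435% lower) and for 0 of 6 in triploids (0.261% and 0.266%).

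The diploid cataract call for P450 2K5 lay close to the threshold. With body weight in the model it was 1.50 ± 0.57 with an adjusted p of 0.361, and it was lost in 18 of 26 fits that left out 1 lens. It held without 2N- replicate 3 or 6, 2N+ replicate 2 or 6, 3N- replicate 2 or 3 and 3N+ replicate 4 or 6. Blood and retina markers stood higher in some libraries of the other groups than in any 2N- library. Haemoglobin unigenes (4) took 0.000953% to 0.0793% of reads in 2N+ against 0.000273% to 0.00549% in 2N-. Unigenes of a retina list by words (42) took 0.0193% to 0.502% in 2N+ against 0.0166% to 0.0373% in 2N-. In each of these groups 1 of the 42, and 0 of the 4, had no reads in any lens. The retina list also took in phosducin-like, transducin-like enhancer and red cell arrestin contigs, which are not specific to the retina. Phosducin-like 3-2 (CL2905.Contig1) stood at 33.9 RPKM in 2N- and 39.7 in 2N+ on average, and rod opsin (Unigene8815) at 46.3 and 538. Haemoglobin reached 0.117% in 3N- and 0.0398% in 3N+, and the retina list 0.301% and 0.0827%. Medians in 2N-, 2N+, 3N- and 3N+ were 0.0032%, 0.0145%, 0.000692% and 0.00902% for haemoglobin. For the retina list they were 0.0218%, 0.0403%, 0.0254% and 0.0246%. The 3N- lenses enter the clear lens ploidy difference. The part of blood and retina in either result was not tested.

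A further P450 contig, Unigene14664 of 275 bases and named P450 2K1, held too few reads to be tested. It had 2 reads in all over the 4 lenses low in P450 2K5, and 113 over the other 22, with at most 9 in a lens. The match was not lens by lens: 2N- replicate 6 held 0 reads of it beside 56 of P450 2K5, and 3N+ replicate 6 held 1. Its RPKM was 0.328 ± 0.496 in 2N-, 1.48 ± 0.855 in 2N+, 1.93 ± 0.273 in 3N- and 1.91 ± 1.03 in 3N+. Whether the short contig is a piece of the same gene was not tested. The 2 other tested P450 contigs, both named P450 26A1, the enzyme that degrades retinoic acid, differed widely between lenses of every group. Unigene9372 ran from 0.186 to 28.8 RPKM within 2N-, and its ploidy differences were -0.99 ± 1.06 log2 (limma adjusted p = 0.838) and -0.79 ± 0.99 (adjusted p = 0.844).

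Uncoupling protein 2A was lower in triploids. It belongs to the mitochondrial carrier family of the inner membrane. On this contig of 1447 bases RPKM was 6.68 ± 1.36 in 2N- (4.19 to 8.25, median 6.90), 8.66 ± 1.08 in 2N+ (6.53 to 9.47, median 8.87), 4.54 ± 1.58 in 3N- (2.54 to 6.92, median 4.61) and 5.76 ± 1.23 in 3N+ (4.39 to 8.15, median 5.63). All neighbours in the order 3N-, 3N+, 2N-, 2N+ overlapped. Triploid minus diploid was -0.58 ± 0.15 log2 in clear lenses and -0.35 ± 0.14 in cataract lenses, ratios of 0.67 and 0.782. On deposited values 6 of 8 cataract triploids lay below every diploid of their state, and 3 of 6 clear triploids did. After rescaling 7 of 8 and 5 of 6 did. On RPKM as deposited the cataract lens difference was -0.56, of which the shift of all unigenes was -0.20.

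Cataract values for uncoupling protein 2A were 0.09 ± 0.15 log2 in diploids (limma adjusted p = 0.895) and 0.31 ± 0.14 in triploids (adjusted p = 0.473), and neither passed. Another contig of the same name, Unigene6780, stood at 0.301 to 0.608 RPKM as group means and was too low to test. Of 29 other tested unigenes named as mitochondrial carriers, a list by words that also took in an acyl carrier protein, 0 passed for ploidy in limma in either state, with 3 at an unadjusted p under 0.05 in each, against the same 9.99% and 8.04% of all. Their medians were -0.03 and -0.07 log2. Uncoupling protein 2A itself passed in neither state alone, only for ploidy on average, which was not counted for this list. For cataract in diploids mitochondrial carrier homolog 2 (Unigene8092, 0.45 ± 0.11, adjusted p = 0.0427) rose and solute carrier family 25 member 47-B (Unigene16530, -0.92 ± 0.20, adjusted p = 0.0219) fell. The average over ploidy also called both (0.29, adjusted p = 0.0413, and -0.73, adjusted p = 0.00368) and the acyl carrier protein (CL540.Contig1, 0.59, adjusted p = 0.0358). The background shares for these calls were 1.38% and 2.65%.

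The FYCO1-like contig was higher in triploids. FYCO1 is an adaptor that links autophagosomes and late endosomes, through LC3 and Rab7, to kinesin, and in people loss of FYCO1 causes inherited cataract. The contig takes its name from its best protein hit. Its best pathway database entry was another protein, early endosome antigen 1, and which of them it encodes was not tested. On this contig of 539 bases RPKM was 3.29 ± 0.953 in 2N- (1.87 to 4.43, median 3.26), 4.90 ± 0.483 in 2N+ (4.24 to 5.49, median 4.80), 5.04 ± 0.882 in 3N- (4.16 to 6.27, median 4.79) and 6.03 ± 1.05 in 3N+ (4.49 to 7.64, median 6.31). These rest on 11 to 48 reads a library. All neighbours in this order overlapped. Triploid minus diploid was 0.55 ± 0.16 log2 in clear lenses and 0.46 ± 0.15 in cataract lenses, ratios of 1.47 and 1.38. On deposited values 4 of 6 clear and 5 of 8 cataract triploids lay above every diploid of their state. After rescaling 6 of 6 and 3 of 8 did, where 0.532% and 0.0512% of tested unigenes had all triploids above.

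Its cataract differences were 0.29 ± 0.16 log2 in diploids (limma adjusted p = 0.491) and 0.19 ± 0.15 in triploids (adjusted p = 0.798). On RPKM as deposited the diploid difference was 0.55 (adjusted p = 0.045) and the average 0.39 (adjusted p = 0.0347), and so passed on that scale, where all unigenes had shifted by 0.27 and 0.15. The ploidy difference in cataract lenses was 0.26 on the deposited scale. Of 5 other contigs named FYCO1-like, 4 were tested and none was called for ploidy in clear or cataract lenses. The longest, Unigene9236 of 1294 bases, held 7.81 ± 2.02 RPKM in 2N- and 8.66 ± 1.77 in 3N-, with 0.13 ± 0.13 log2 in clear lenses (limma adjusted p = 0.823) and 0.26 ± 0.12 in cataract lenses (adjusted p = 0.604). Whether these contigs are pieces of 1 transcript or separate gene copies was not tested. Of 39 other tested autophagosome and kinesin unigenes, 0 passed in limma for ploidy in clear or cataract lenses, or for cataract. For ploidy 5 and 4 had an unadjusted p under 0.05 in clear and cataract lenses. For cataract 4 and 0 did in diploids and triploids. The shares over all tested unigenes were 9.99%, 8.04%, 12.5% and 8.94% in the same order. The FYCO1-like member itself passed in neither state alone, only for ploidy on average, which was not counted for this list.

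**Figure D3:**
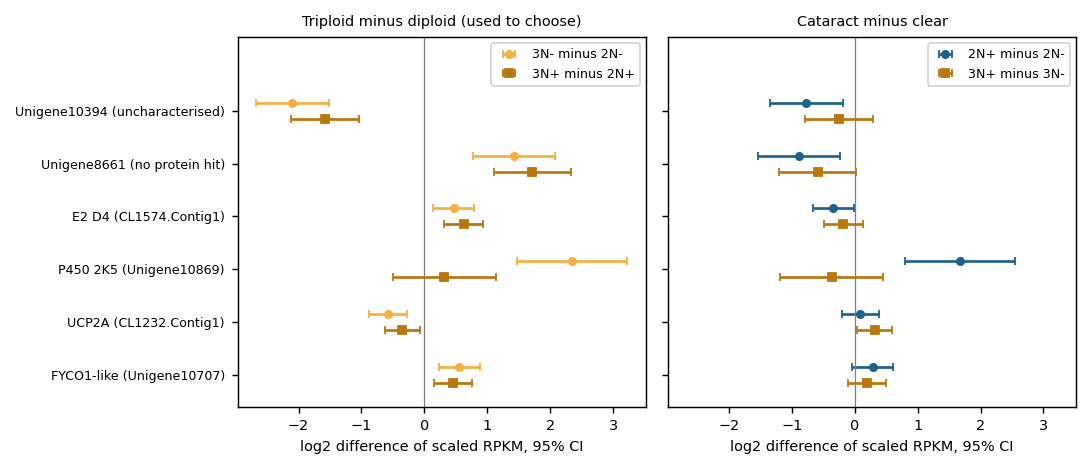
Log2 difference of scaled RPKM with 95% confidence interval for triploid minus diploid (left, the contrasts that chose the members) and cataract minus clear (right). All members keep their sign in both cataract states, and P450 2K5 shows 2.35 in clear and 0.31 in cataract lenses.

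Among the 6 members P450 2K5 had the widest gap between its ploidy differences in the 2 cataract states. For the other 5 members the change from clear to cataract lenses was 0.52 ± 0.39 log2 or less in size. After group means were removed, pairs of members had Pearson's r from -0.226 to 0.386 over 26 lenses.

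No member's level had a called slope on body weight. The slope on log2 body weight within groups ran from -0.08 ± 0.20 log2 per doubling for Unigene10394 to 0.26 ± 0.21 for Unigene8661, and 0 of 6 members passed in limma (smallest adjusted p = 0.942), as 0% of tested unigenes did, with 0 members and 1238 of all unigenes at an unadjusted p under 0.05. At equal weight the ploidy differences in clear lenses were -2.02 ± 0.35 (Unigene10394), 1.17 ± 0.38 (Unigene8661), 0.40 ± 0.20 (E2 D4), 2.22 ± 0.53 (P450 2K5), -0.62 ± 0.18 (uncoupling protein 2A) and 0.56 ± 0.20 (FYCO1-like). Each kept its sign and moved by at most 0.26 from its value without weight. In cataract lenses, where mean weights were 596 and 606 g, they moved by at most 0.01. For E2 D4 in clear lenses the 95% interval at equal weight ran from -0.007 to 0.803. Over all tested unigenes the limma calls for ploidy in clear lenses went from 13 to 0 with weight in the model. The 2N- fish weighed 110 to 345 g and the 3N- fish 280 to 700 g. Equal weight in clear lenses thus rests on a slope shared by all groups, over weights that overlap little.

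**Figure D4:**
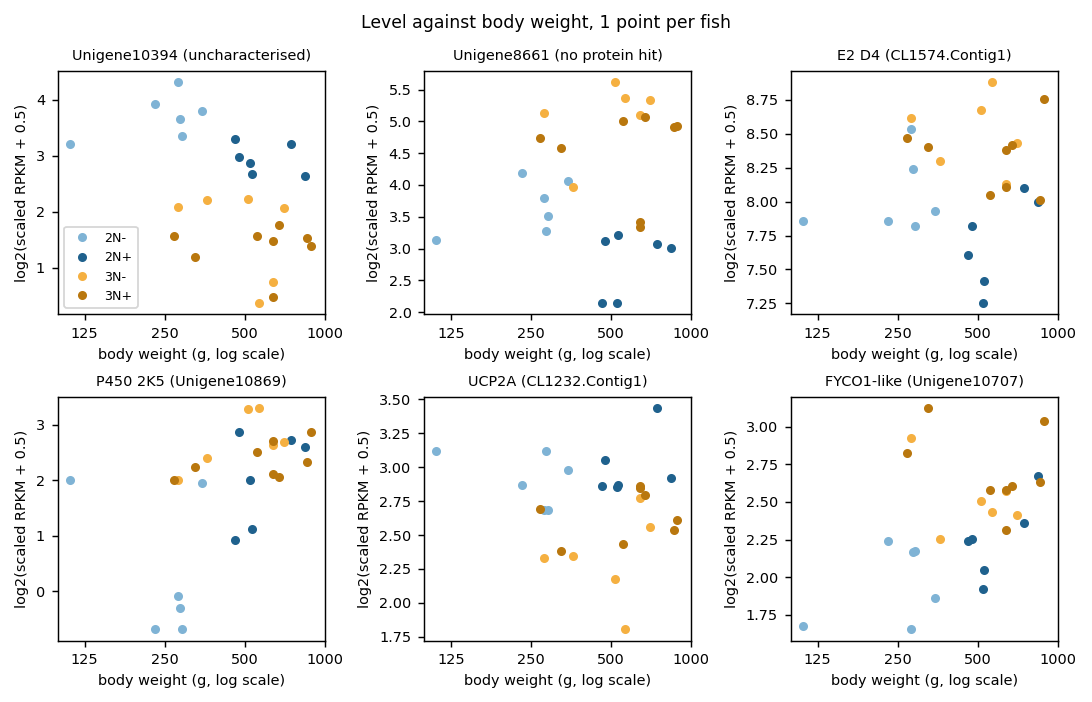
Level of each member, as log2(scaled RPKM + 0.5), against body weight on a log axis, 1 point a fish, by group. For Unigene10394 all triploids lie below all diploids whatever their weight, and it was chosen by its ploidy difference. The 2N- fish cover lower weights, 110 to 345 g, than the 2N+ fish.

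Within each group apart, 24 relations of level and weight were computed with exact two-sided permutation tests. Pearson's r ran from -0.455 to 0.725, 15 of 24 were positive and 0 had a p under 0.05. The largest was FYCO1-like in 2N+ (r = 0.725, exact permutation p = 0.0958, adjusted p = 0.735; rho = 0.543, exact permutation p = 0.297), and without the 2 fish farthest from the median weight r was -0.909. With 6 or 8 fish a group such relations can rest on single fish. Slopes also did not differ by a called amount between triploids and diploids, with 0 of 6 members and 0% of tested unigenes past the threshold in limma, and 0 and 2184 at an unadjusted p under 0.05. FYCO1-like had the smallest adjusted p (-0.43 ± 0.22 log2 per doubling, triploid minus diploid, limma adjusted p = 0.448).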

How the data were processed

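The authors deposited 1 table of RPKM values, per the file headers, with the best protein hit of each unigene; hits gave every gene name, and 13784 unigenes had one. Aligner and assembler were not stated. A dash was read as 0. Whole reads were recovered from the RPKM steps for 100% of unigenes, within 0.01 reads. Where counts had been planned for as an option, the values were RPKM, so the main test was limma 3.58.1 (R 4.3.3; trend and robust) on log2(scaled RPKM + 0.5), with factors from the trimmed mean of M values (group means 0.944 in 2N-, 1.16 in 2N+, 0.961 in 3N- and 0.99 in 3N+).

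Unigenes with at least 10 reads, at the median depth, in at least 6 libraries and at least 15 in total were tested. P-values are two-sided, with Benjamini-Hochberg adjustment over 19532 unigenes for limma and over the 24 relations for the permutation tests of weight. Further models added log2 body weight, its slope by ploidy, or log2 connexin 43; the connexin 43 slope, the slope by ploidy and likeness on deposited RPKM were added after seeing the data. Within-group weight relations used exact permutation (SciPy 1.17.1). Scripts were tested on simulated data.

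The members and lists were chosen with earlier results of these data known. Named were the members, same-name contigs and list unigenes past an adjusted p of 0.05. The unigenes nearest a member after removing group means were sought for all 6 members. They are given here for Unigene8661 and E2 D4 only. Each library is a separate fish. No sequence is shown because no file used here holds one.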

Additional observations from a re-analysis of the deposited data

Results flagged for a closer look

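Uncoupling protein 2A (CL1232.Contig1) in 2N+ replicate 1 stood at 6.53 RPKM, with the other 5 lenses of that group at 8.78 to 9.47 RPKM. The gap to its nearest neighbour was 0.765 of the group's range, above Dixon's critical value of 0.625. Over 24 member and group combinations 1 was picked out in this way, and chance alone picks about 1 in 20.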

How the results depend on the processing

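The count of members called for cataract in diploids, 1 in the model of 4 groups, was 2 on RPKM as deposited and 2 with connexin 43 as a covariate. Calls over all tested unigenes were 269, 1315 and 915 in the same order. The count of members was 0 with a pseudocount of 1, without the filter, with voom on recovered reads, with body weight as a covariate and with the 2 groups alone. Calls over all unigenes were then 259, 240, 355, 43 and 70. Over the fits leaving out 1 lens 0 or 1 members were called, and 103 to 486 of all unigenes. The count of members averaged over ploidy, 0, was 1 on RPKM as deposited, 2 with connexin 43, and 0 to 1 leaving out 1 lens. Calls over all tested unigenes were 518, 1432, 1137, and 350 to 653 in the same order. P450 2K5 in diploids ran from 1.46 to 2.00 log2 (adjusted p 0.0156 to 0.127) over those fits; its value was 1.30 (adjusted p = 0.0567) with a pseudocount of 1, 1.67 (adjusted p = 0.0517) without the filter, 2.47 (adjusted p = 0.0703) with voom and 1.67 (adjusted p = 0.234) with the 2 groups alone. The cause was not tested.

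Replicate numbers showed no clear pairing of the fish. Of 36 same-numbered pairs 18 correlated over 0.1, and 3 of 26 libraries were closest to their own number. The same share for differently numbered pairs is not given here, so these values cannot settle whether pairing is absent. With the replicate number as a block the count of members called for cataract in diploids was 0, against 222 of all tested unigenes. P450 2K5 was 1.67 (adjusted p = 0.0739), and the tested unigenes called for ploidy on average went from 51 to 20. Weight slopes, none of them called, changed sign under the block for P450 2K5 (-0.203), uncoupling protein 2A (-0.035) and FYCO1-like (0.018). They also did so on RPKM as deposited for uncoupling protein 2A (-0.016), with fish length for FYCO1-like (0.229), in diploids alone for Unigene10394 (0.198), P450 2K5 (-0.288), uncoupling protein 2A (-0.03) and FYCO1-like (0.265), and in triploids alone for E2 D4 (-0.055). Leaving out 1 lens gave -0.018 to 0.643 for P450 2K5 and -0.087 to 0.063 for FYCO1-like.

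All 6 members kept the sign of both ploidy differences under every alternative run. They were chosen by these differences in the same lenses, so kept signs are no separate support. P450 2K5 in cataract lenses went as low as 0.088 leaving out 1 lens, against 0.31 ± 0.40 in the model of 4 groups. Over all tested unigenes the calls in that model, on RPKM as deposited, with connexin 43 and with body weight were 269, 1315, 915 and 43 for cataract in diploids, 13, 60, 83 and 0 for ploidy in clear lenses, and 51, 61, 95 and 12 for ploidy on average; 518, 1432, 1137 and 246 for cataract on average; 17, 48, 115 and 22 for cataract in triploids; and 2, 10, 8 and 3 for ploidy in cataract lenses. Leaving out 1 lens gave 103 to 486 for cataract in diploids, 5 to 43 in triploids and 350 to 653 on average, 3 to 72 and 0 to 15 for ploidy in clear and cataract lenses and 12 to 117 on average, and 0 to 24 for weight slopes. Median-of-ratios scaling and no filter each gave 31 for ploidy on average. Voom gave 1 for ploidy in clear lenses and 10 for cataract in triploids, and the block 5 and 4. Calls split 40 higher and 11 lower for ploidy on average, 37 and 24 on RPKM as deposited, and 30.7% of calls were higher for cataract on average, 78.1% as deposited. Weight slopes called 0 unigenes, 8 with connexin 43 and 27 in triploids alone. Low read numbers limit Unigene10394 in triploids, P450 2K5 in 2N- and FYCO1-like throughout.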
